A study of Mus musculus with 7 samples.

Results

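Interferon response genes are switched on when a cell senses an interferon or the nucleic acids of a virus. Interferon receptors act through the Janus kinases on STAT proteins such as STAT2, which join IRF9 and bind the interferon-stimulated response element, a DNA element in front of many of these genes. The IRF proteins are transcription factors of the same pathway, of which IRF1 and IRF7 are themselves induced. Muscle cells carry the receptors, and a low, constant activity of the pathway is found in many resting cells. The 9 genes described here were Ifit1, Ifit2, Ifit3, Isg15, Irf1, Irf7, Stat2, Usp18 and Rtp4, taken by name out of the 31829 gene names on the array. All 11 non-control probes that carry these names were used, 2 for Isg15, 2 for Irf1 and 1 for each of the others.

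RNA came from C2C12 cells, a mouse muscle cell line, incubated for 24 h with exosomes, the small vesicles that cells release. In the EXO-Palm group (3 arrays) the vesicles were those of separate C2C12 cultures given palmitate, a saturated fatty acid, at 0.5 mM, and in the EXO-BSA group (4 arrays) from cultures treated with BSA, the carrier protein alone. According to the paper the vesicles were collected after palmitate had been removed, and the recipient cells were myotubes, while the array labels call them myoblasts. Both groups received exosomes, so no array analysed here shows the cells without them. All cells are taken to be of 1 line, C2C12. The labels number the name of the line upward over the samples, which was read here as an entry error. The labels call the arrays biological replicates.

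Each array measured 39429 probes in 1 colour. Values below are log2 signals relative to each array's own 75th percentile, which is 0 on this scale, and they compare arrays within a probe, not one probe with another. That percentile was a signal of 549.4 to 1621. The 7 arrays were spread over 4 slides. On slide 1 were EXO-BSA replicates 1 and 2 and EXO-Palm replicate 1, on slide 3 were EXO-BSA replicate 4 and EXO-Palm replicate 3, and EXO-BSA replicate 3 and EXO-Palm replicate 2 were alone on slides 2 and 4. The 3 arrays of slide 1 had the most probes called well above background by the scanner software, 62.0 to 70.3% against 48.5 to 54.1% on the others. All 10 muscle markers, Myog and Myod1 among them, were well above background on all 7 arrays. Of 10 leukocyte markers, 5 were well above background on all 7 arrays, while Lyz2 was on none, Cd68 on 1 and Ptprc, which encodes CD45, on 2. Of 5 endothelial markers, Kdr and Pecam1 were well above background on all 7 arrays and Cdh5, Tek and Tie1 on none. Of 4 adipocyte markers none was well above background on all 7 arrays. The summed linear signal of the leukocyte probes was 8.38 to 19.2 times the 75th percentile in EXO-BSA and 6.62 to 7.93 times in EXO-Palm. In EXO-BSA most of this signal was that of the Itgam probe. Without Itgam the sum was 2.53 to 3.94 and 3.11 to 4.98 times. Bright probes weigh most in such a sum, and probes near background are in it, so it is not an amount of leukocyte RNA. Of the 6 tested leukocyte markers 4 were above 0 in log2 fold change (median 0.33). Cd14 stood at 1.05 and Itgam at -1.63, both without overlap between the groups, as were 11.0% of all tested probes. Neither passed (limma adjusted p = 0.219 for Cd14 and 0.111 for Itgam). Whether these markers bear on the values below was not tested, and a change in the number of cells of a type cannot be told apart from a change in RNA per cell.

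The response element itself could be looked up in RefSeq promoter windows (mouse build GRCm38.p6), which run from 250 bases before to 50 bases after the annotated start of transcription. They covered 7 of the 9 genes. Usp18 and Rtp4 had no entry. The core of the element was searched as GAAANNGAAA on both strands, with overlapping matches counted. It occurred in 3.44% of 32851 windows and in 3.99% of 27025 genes. Isg15, Ifit1, Ifit3 and Stat2 had at least 1 match. The 60 bases around each are shown because these genes hold the searched letters in the window, while Ifit2, Irf1 and Irf7 do not. The search took a fixed string in a short window, so a missing match does not show that the element is absent. Capitals mark the matches, 5′ to 3′ in the direction of the gene, so a match on the opposite strand reads as its reverse complement.
Isg15, chr4:156200856-156200915, minus strand: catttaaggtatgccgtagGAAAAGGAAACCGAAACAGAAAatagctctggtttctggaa
Ifit1, chr19:34640769-34640828, plus strand: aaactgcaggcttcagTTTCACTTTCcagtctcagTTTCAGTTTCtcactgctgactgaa
Ifit3, chr19:34583365-34583424, plus strand: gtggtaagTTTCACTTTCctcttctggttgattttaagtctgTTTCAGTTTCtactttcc
Stat2, chr10:128270251-128270310, plus strand: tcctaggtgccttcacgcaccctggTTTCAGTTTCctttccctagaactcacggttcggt

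In the Isg15 promoter 3 overlapping matches ran in the direction of the gene, from base -78 to base -57 before the start. Ifit1 had 2 matches on the opposite strand, the first from base -104 to base -95 and the next from base -85 to base -76. Ifit3 had 2 on the opposite strand as well, farther from the start (bases -156 to -147 and -122 to -113). The match in Stat2 lay farthest out, from base -222 to base -213. A match is a description of the sequence and does not show that the element is bound.

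**Figure D1:**
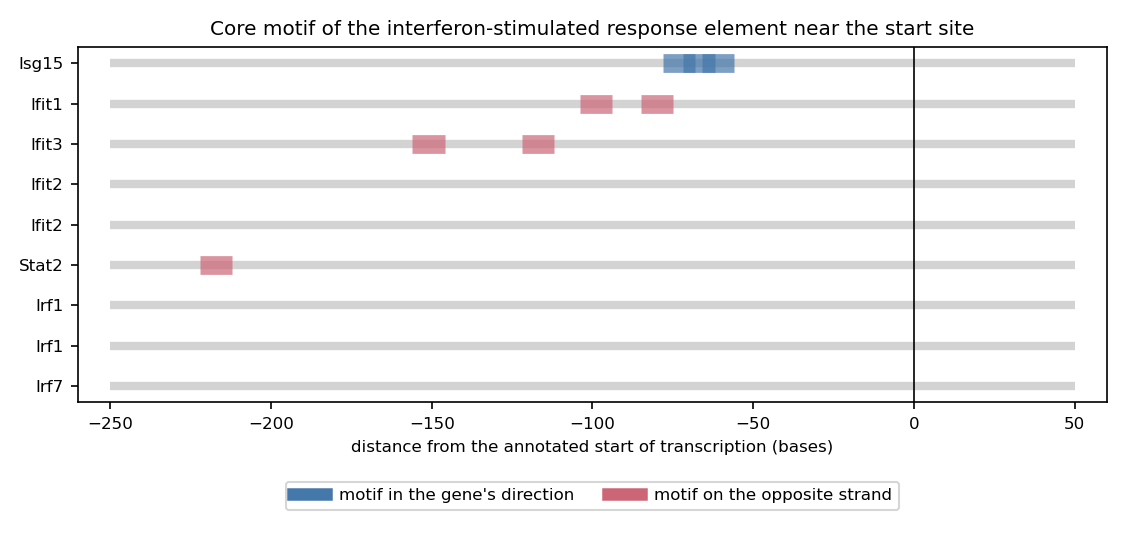
Position of the GAAANNGAAA core in the RefSeq promoter windows of the 7 genes that have one, in bases from the annotated start of transcription (0). Grey bars are the windows searched (Ifit2 and Irf1 have 2 each), blue blocks are matches in the direction of the gene and red blocks matches on the opposite strand. Isg15, Ifit1, Ifit3 and Stat2 have matches, all before the start.

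Of the 9 genes, 5 were measured above background on all 7 arrays and 4 were near background. Ifit2, Isg15, Irf1, Stat2 and Rtp4 each had 1 probe well above background on every array. Ifit1, Ifit3, Irf7 and Usp18, and the further probes of Isg15 and Irf1, were well above background on 1 to 3 arrays and did not pass the filter for testing, which asks for at least 75% of the arrays of 1 group. By limma none of the 5 tested genes changed at the threshold (adjusted p under 0.05), which 0.533% of all 21589 tested probes passed. Before adjustment 1 of the 5 (Ifit2) had a p under 0.05, as did 10.0% of all tested probes. In none of the 5 did the groups stay apart without overlap, which 11.0% of all tested probes did. Their median log2 fold change was 0.24, against -0.02 over all tested probes, with 3 genes above 0 and 2 below. The 95% intervals of the 5 fits together spanned folds of 0.561 to 1.99.

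**Figure D2:**
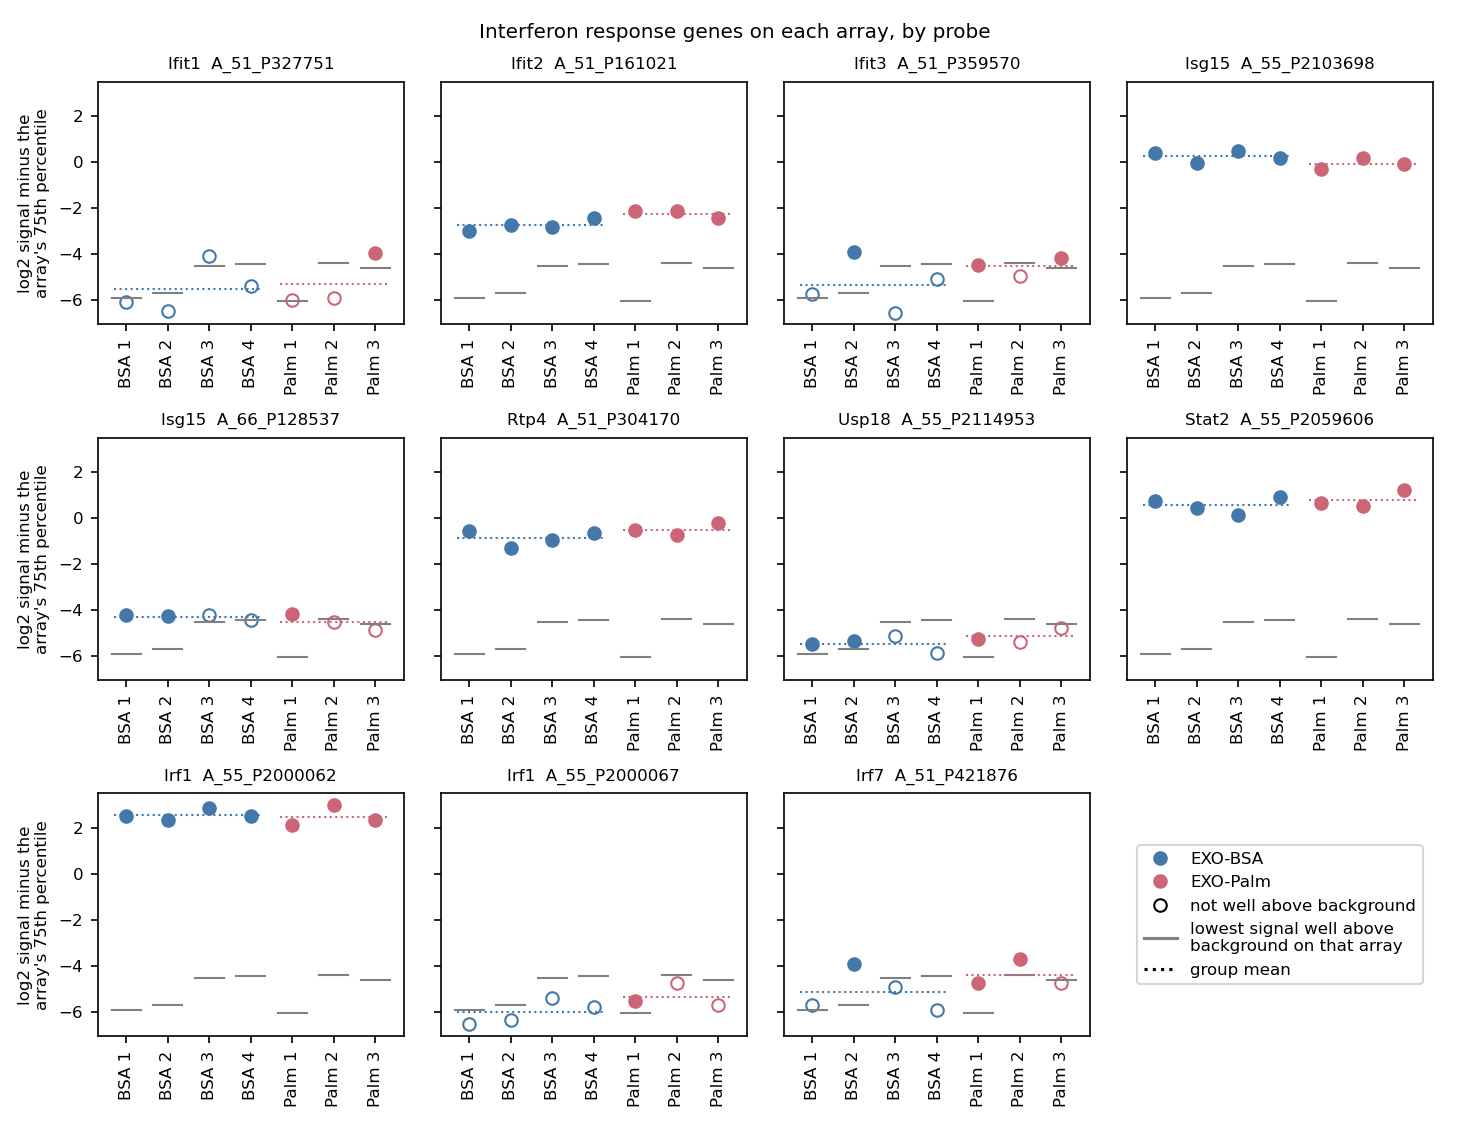
Log2 signal relative to the array's 75th percentile for each of the 11 probes on the 4 EXO-BSA arrays (blue) and 3 EXO-Palm arrays (red). Open circles were not well above background, grey bars give the lowest signal well above background on each array, and dotted lines are group means. Ifit2, Rtp4, Stat2 and 1 probe each of Isg15 and Irf1 lie clear of the grey bars on every array. Outside slide 1 the other 6 probes lie near or below them, and on slide 1 some of these lie clear of them.

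The IFIT proteins bind foreign RNA and hold back its translation. Ifit2 (probe A_51_P161021, chromosome 19, 34650244 to 34650303 on mm9, the build of the array's annotation) was at -2.99, -2.76, -2.84 and -2.44 on EXO-BSA replicates 1 to 4. On EXO-Palm replicates 1 to 3 it was at -2.15, -2.15 and -2.45. EXO-BSA replicate 4 reached the level of EXO-Palm replicate 3, so the groups overlapped at that level, and the other 3 EXO-BSA arrays lay below all EXO-Palm arrays. The means were -2.76 ± 0.23 (SD, n = 4) and -2.25 ± 0.17 (SD, n = 3). The log2 fold change was 0.51 (standard error 0.214, 95% interval 0.02 to 0.99), a fold of 1.42. It did not pass the limma test after adjustment over all probes (p = 0.0429, adjusted p = 0.482), and the exact permutation test over all 35 partitions of the arrays gave p = 0.0857, where the smallest possible p is 0.0286. Within slide 1 EXO-Palm was higher by 0.73 on the log2 scale and within slide 3 the difference was -0.01, so the 2 slides that held both groups did not show the same difference.

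Ifit1 and Ifit3 belong to the same family and lie beside Ifit2 on chromosome 19. Ifit1 (A_51_P327751, 34723796 to 34723855) was well above background on EXO-Palm replicate 3 alone, at -3.98, and its other values ran from -6.49 to -4.08. A bound on its fold was under 1, so none is given. Ifit3 (A_51_P359570, 34663105 to 34663164) was well above background on EXO-BSA replicate 2 at -3.92, EXO-Palm replicate 1 at -4.46 and EXO-Palm replicate 3 at -4.17. On the other 4 arrays it ran from -6.56 to -4.95. Ifit3 has a near-identical neighbour, Ifit3b, and this probe may not separate the signal of both. Neither gene was tested.

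Isg15 encodes a ubiquitin-like protein that is attached to other proteins after interferon, and Usp18 is the protease that removes it and also damps the type I receptor. The Isg15 probe A_55_P2103698 (chromosome 4, minus strand, 155573649 to 155573708) was at 0.40, -0.06, 0.46 and 0.18 on EXO-BSA replicates 1 to 4 and at -0.31, 0.18 and -0.12 on EXO-Palm replicates 1 to 3. EXO-Palm replicate 2 lay among the EXO-BSA arrays, and the other EXO-Palm arrays lay below all of them. The means were 0.24 ± 0.23 (SD, n = 4) and -0.08 ± 0.24 (SD, n = 3). EXO-Palm was lower by a log2 fold change of -0.33 (standard error 0.224, 95% interval -0.84 to 0.18), which did not pass (limma adjusted p = 0.670, exact permutation p = 0.114). The values within slides 1 and 3 were -0.48 and -0.30.

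The further Isg15 probe, A_66_P128537, was well above background on the 3 arrays of slide 1 alone, at -4.23, -4.27 and -4.17. On the other arrays it ran from -4.88 to -4.24. The array's annotation gives this probe of 60 bases a position of only 20 bases on mm9 (155573533 to 155573552). Usp18 (A_55_P2114953, chromosome 6, 121220874 to 121220933) showed the same pattern of detection, well above background on the 3 arrays of slide 1 at -5.45, -5.36 and -5.25 and not on the others, where it ran from -5.87 to -4.77. The lowest signal that was well above background lay at -6.04 to -5.67 on the arrays of slide 1 and at -4.59 to -4.40 elsewhere. An Usp18 value of the same size was thus detected on slide 1 and not on the other slides, and the part of the slide in these calls cannot be told apart from that of the samples on it.

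Rtp4, an interferon-induced chaperone that carries G protein-coupled receptors to the cell surface, was read by A_51_P304170 (chromosome 16, 23613668 to 23613727). It was at -0.57, -1.33, -0.96 and -0.68 on EXO-BSA replicates 1 to 4 and at -0.55, -0.77 and -0.21 on EXO-Palm replicates 1 to 3. EXO-Palm replicate 2 lay between the EXO-BSA arrays, and the others lay above them. The difference came to 0.37 on the log2 scale (standard error 0.255, 95% interval -0.21 to 0.95) and did not pass (limma adjusted p = 0.666, exact permutation p = 0.229). The difference was 0.40 within slide 1 and 0.46 within slide 3.

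Stat2 and the IRF genes encode the transcription factors. Stat2 (A_55_P2059606, chromosome 10, 127729834 to 127729893) was at 0.74, 0.40, 0.12 and 0.90 on EXO-BSA replicates 1 to 4 and at 0.64, 0.50 and 1.20 on EXO-Palm replicates 1 to 3. The highest value was in EXO-Palm and the lowest 2 in EXO-BSA, with the rest mixed. Its log2 fold change of 0.24 (standard error 0.273, 95% interval -0.38 to 0.86) did not pass (limma adjusted p = 0.807, exact permutation p = 0.429). Within slide 1 the difference was 0.06 and within slide 3 it was 0.30.

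Irf1 was at 2.49, 2.35, 2.84 and 2.50 on EXO-BSA replicates 1 to 4 with probe A_55_P2000062 (chromosome 11, 53590746 to 53590805). It was at 2.10, 3.00 and 2.32 on EXO-Palm replicates 1 to 3. Both the highest and the lowest value were in EXO-Palm, and the SD there was 0.47 against 0.21 in EXO-BSA. The fitted difference was -0.07 on the log2 scale (standard error 0.263, 95% interval -0.67 to 0.53, limma adjusted p = 0.949, exact permutation p = 0.829). Its sign turned when EXO-BSA replicate 3, EXO-Palm replicate 1 or EXO-Palm replicate 3 was left out, so Irf1 is given no direction. A probe for another Irf1 transcript variant, A_55_P2000067 (53591817 to 53591876), was well above background on EXO-Palm replicate 1 alone and ran from -6.53 to -4.75 over the 7 arrays.

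Irf7, which amplifies the production of type I interferon, was near background. Its probe A_51_P421876 (chromosome 7, minus strand, 148450664 to 148451014) spans an intron, since its 60 bases cover 351 bases of the genome. It was well above background on EXO-BSA replicate 2 at -3.93, EXO-Palm replicate 1 at -4.75 and EXO-Palm replicate 2 at -3.72. On the other arrays it ran from -5.93 to -4.72. Its detected arrays thus included 1 of 4 EXO-BSA and 2 of 3 EXO-Palm arrays, and the gene was not tested.

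The number of probes of the 9 genes that were well above background was 7, 9, 5 and 5 on EXO-BSA replicates 1 to 4 and 10, 6 and 7 on EXO-Palm replicates 1 to 3, of 11. It was 7 to 10 on slide 1 and 5 to 7 elsewhere. Of 122 other genes of the interferon pathway on the array, 93 to 100 were well above background on the arrays of slide 1 and 68 to 79 on the others. Detection of these genes was thus highest on slide 1, as was that of all probes. Among the other arrays the 11 probes did not follow the share of all probes. EXO-BSA replicate 3 had 5 of the 11 at 54.1% of all probes, and EXO-Palm replicate 3 had 7 at 52.0%. The RNA labelled is given as 0.1 µg for all 7 arrays. Whether the slide, the RNA or the cells set the detection was not tested.

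**Figure D3:**
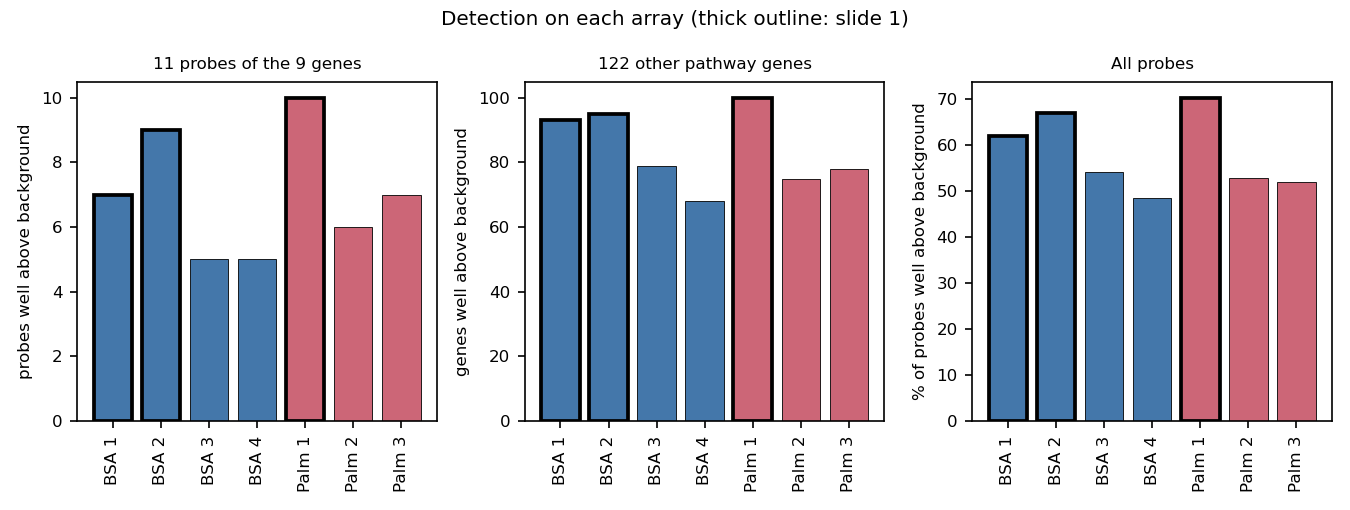
Number of the 11 probes of the 9 genes (left), number of 122 other pathway genes (middle) and percent of all 39429 probes (right) well above background on each array, with EXO-BSA in blue and EXO-Palm in red. Bars with a thick outline are the 3 arrays of slide 1, which have the highest percent of all probes, 62.0 to 70.3%.

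The 5 tested genes did not vary as 1 block over the 7 arrays. As a description of 7 arrays, Pearson's r between pairs ran from -0.62 for Ifit2 with Isg15 to 0.79 for Rtp4 with Stat2. Irf1 and Isg15 also varied together (r = 0.73), while Irf1 and Stat2 varied oppositely (r = -0.47). The mean of the 5 genes, each centred on its own mean, was lowest on EXO-BSA replicate 2 at -0.28 and highest on EXO-Palm replicates 2 and 3 at 0.15 each. The tested genes outside the interferon lists whose values lay closest to that mean were Rfc3 and Gpsm2 (r = 0.97 each), then Ddx1, Gm71, Zfp189 and the transcript ENSMUST00000114900 (r = 0.96 each). The array's annotation gives that transcript as one of Zc3hav1, an antiviral gene that is in the pathway list under its own name. The genes named were picked for the highest r among tested genes outside the lists, so a high r follows from the choice. All of these r describe 7 arrays, some of which share a slide, and carry no test.

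The other genes of the pathway were read from a list of 130, of which 122 were on the array by name and 80 could be tested. No gene of the 80 passed at an adjusted p under 0.05 by limma (0.533% of all tested probes did). Of the 80, 40 were above 0 and 40 below, with a median log2 fold change of -0.01 against -0.02 over all tested probes. At an unadjusted p under 0.05 there were 6, of which 4 were higher and 2 lower in EXO-Palm, a share of the list below the 10.0% of all tested probes. The higher ones were Ifitm1, Ifitm3, Gvin1 and Zbp1 and the lower ones Irgm1 and Rigi (Ddx58 on the array). Gvin1 and Rigi were named after their values were seen. The groups did not overlap in 5 of the 80, where 11.0% of all tested probes did not.

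Among the ligands, Ifnb1, which encodes interferon beta, was well above background on no array. Ifng, which encodes interferon gamma, was well above background on 6 arrays at levels near the floor (log2 fold change -0.19, limma adjusted p = 0.867). Of 15 ligand genes on the array 6 could be tested and none was well above background on all 7 arrays. The largest rise among them was that of Ifnl3, named Il28b on the array (0.62, adjusted p = 0.698) and the largest fall that of Ifnab (-0.24, adjusted p = 0.817). Without EXO-BSA replicate 4, which was not well above background, Ifnl3 was at 0.15, and a further Ifnl3 probe was well above background on 3 arrays and was not tested. Ifnab entered the test through EXO-BSA (4 of 4 arrays well above background against 2 of 3 in EXO-Palm). The interferon alpha genes are near copies of each other, so their probes may not tell them apart.

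The receptors were present. Ifnar1 and Ifnar2, the chains of the type I receptor, were well above background on all 7 arrays with log2 fold changes of 0.05 and 0.13. The other tested probes of Ifnar1 gave -0.36 and -0.35, so Ifnar1 is given no direction. Ifngr1 and Ifngr2, the chains of the interferon gamma receptor, stood at -0.03 and 0.10, and Il10rb, the shared chain of the lambda receptor, at -0.36. Ifnlr1, the chain that is particular to interferon lambda, was well above background on no array. The limma adjusted p-values of these 5 tested receptors ran from 0.646 to 0.975, so none passed.

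Of the kinases, Jak1, Jak2 and Tyk2 were well above background on all 7 arrays, with log2 fold changes of 0.13, 0.05 and 0.25. Irf9, the DNA-binding partner of STAT2, was at -0.93 ± 0.41 (SD, n = 4) in EXO-BSA and at -0.56 ± 0.17 (SD, n = 3) in EXO-Palm, a log2 fold change of 0.37 (limma adjusted p = 0.680). Irf3, which is present before any stimulus and is activated by phosphorylation, stood at -0.14, and Irf2, a repressor of interferon genes, at -0.28. None of these 6 passed. Irf5 was well above background on 3 arrays and Irf8 on none, so neither could be compared.

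The antiviral effectors held the widest fitted changes. Ifitm1, a membrane protein that blocks the entry of viruses, was at -1.70, -1.05, -2.27 and -2.26 on EXO-BSA replicates 1 to 4 and at 0.08, -1.68 and 0.93 on EXO-Palm replicates 1 to 3. EXO-Palm replicate 2 lay inside the EXO-BSA range and the other EXO-Palm arrays lay above it. Its log2 fold change of 1.60, with a standard error of 0.581, did not pass (limma adjusted p = 0.411). It was 1.02 without EXO-Palm replicate 3 and 2.33 without EXO-Palm replicate 2 (adjusted p = 0.0517). Ifi35 had the largest fall, -2.00 (standard error 1.54, adjusted p = 0.707), which rested on EXO-Palm replicate 2 at -6.06, where the probe was not well above background. Its other 6 arrays ran from 0.29 to 1.31, and without EXO-Palm replicate 2 the log2 fold change was 0.40. Ifitm3, chosen after its values were seen, was higher on all 3 EXO-Palm arrays (4.90 to 5.27) than on all 4 EXO-BSA arrays (4.20 to 4.64), with a log2 fold change of 0.66 (adjusted p = 0.323).

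Among the interferon-inducible GTPases, which act on vacuoles that hold pathogens, Irgm1 was lower on all 3 EXO-Palm arrays (0.12 to 0.24) than on all 4 EXO-BSA arrays (0.64 to 1.29). This log2 fold change of -0.75, with a standard error of 0.218 and a 95% interval of -1.24 to -0.25, did not pass (limma adjusted p = 0.271), and the values within slides 1 and 3 were -0.72 and -0.85. It was smaller with the authors' processed values (-0.32) and with normexp (-0.35). A dimmer Irgm1 probe gave -0.83 with a wider standard error (0.648), and its groups overlapped. Gbp3 had the largest fitted rise of this role, 1.12 (adjusted p = 0.513). It entered the test through EXO-Palm (3 of 3 arrays well above background), while 2 of 4 EXO-BSA arrays were, so the size of this rise rests on values at background, and with normexp it was 0.58.

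Among the sensors and adaptors, Zbp1, a sensor of nucleic acids in the Z form, stood at 0.72 (adjusted p = 0.466) and Ikbke, a kinase upstream of IRF3, at -0.58 (adjusted p = 0.745). Ikbke entered the test through EXO-BSA (3 of 4 arrays well above background), while 1 of 3 EXO-Palm arrays was, so its fall is set against a group mostly at background. Its sign turned without EXO-Palm replicate 2 and with slide as a fixed block, but not with slide as a random block. In antigen presentation the largest rise was that of Ciita (0.43) and the largest fall that of B2m (-0.40). Ciita lay near the floor and was not well above background on EXO-BSA replicate 4. Its difference was -0.24 within slide 1 and 1.58 within slide 3, which held that array, so Ciita is given no direction. Among the negative regulators the largest rise and fall were those of Socs1 (0.21) and Pias1 (-0.26), whose other tested probes gave 0.46 and 0.23. Pias1 is thus given no direction. None of these last 4 passed by limma, with adjusted p-values of 0.710 to 0.766. The 5 genes without overlap between the groups were Ifitm3 and the DNA sensor Cgas (E330016A19Rik on the array), higher in EXO-Palm, and Irgm1, the immunoproteasome subunit Psmb10 and the RNA sensor Rigi, lower in EXO-Palm. They were chosen after their values were seen, and each has the smallest exact permutation p that 4 against 3 arrays allow, 0.0286.

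**Figure D4:**
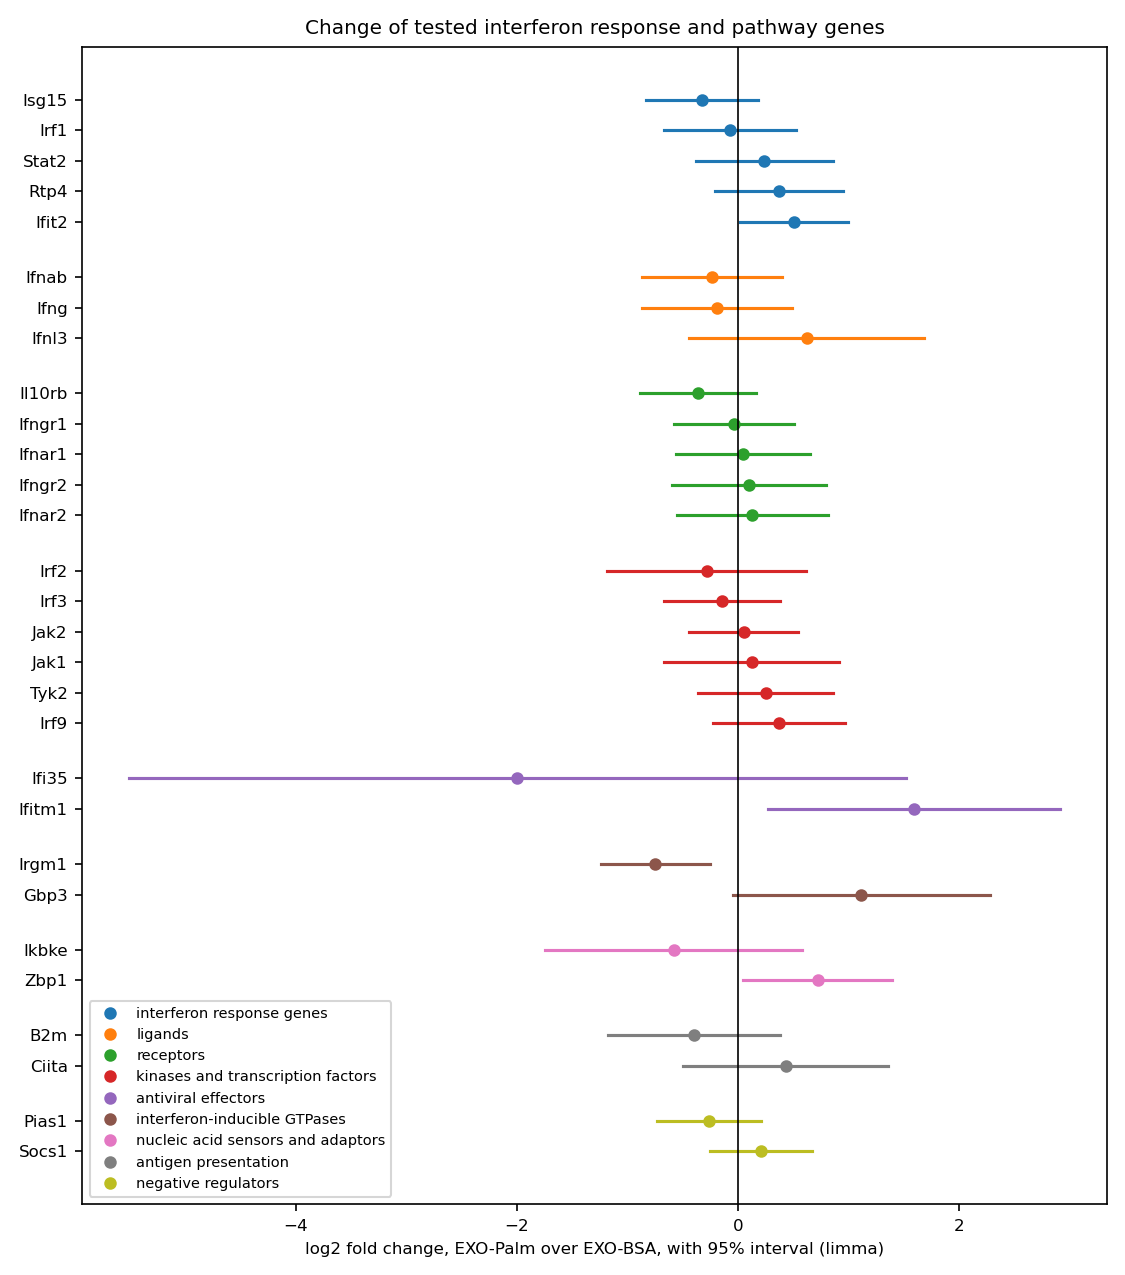
Log2 fold change (EXO-Palm over EXO-BSA) with its 95% interval from limma for the 5 tested interferon response genes and the named tested genes of each role in the pathway. The intervals of Ifit2, Ifitm1, Irgm1 and Zbp1 leave out 0 before adjustment over all probes, and no gene shown passed after it.

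Pathway genes with and without the core of the response element in their promoter windows were also set side by side. Of 103 pathway genes with a promoter window, 42 held the GAAANNGAAA core, 40.8%, against 3.99% of all genes with a window. Of the 38 with a match that were on the array, 22 could be tested, 9 above 0 and 13 below, with a median log2 fold change of -0.08. Of the 58 without one, 41 could be tested, 21 above 0 and 20 below, with a median of 0.02. The difference between these medians was not tested.

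The arrays were processed or fitted in 20 other ways, each leave-out of an array among them. Ifit2, Rtp4 and Stat2 stayed above 0 and Isg15 below 0 in all 20. Settings that changed only the probe filter or the test, and the trended and robust fit, repeated the reported fitted values. Those settings could not turn a sign. The replicate block repeated the values without EXO-BSA replicate 4, so the 20 are not separate checks of the sign. The fitted values ran from 0.41 to 0.61 for Ifit2, from 0.22 to 0.51 for Rtp4, from 0.03 to 0.63 for Stat2 and from -0.46 to -0.21 for Isg15. With the general test that the paper names for comparing means, run without adjustment in place of limma, Ifit2 passed, and under no other of these settings did any of the 5 genes pass.

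**Figure D5:**
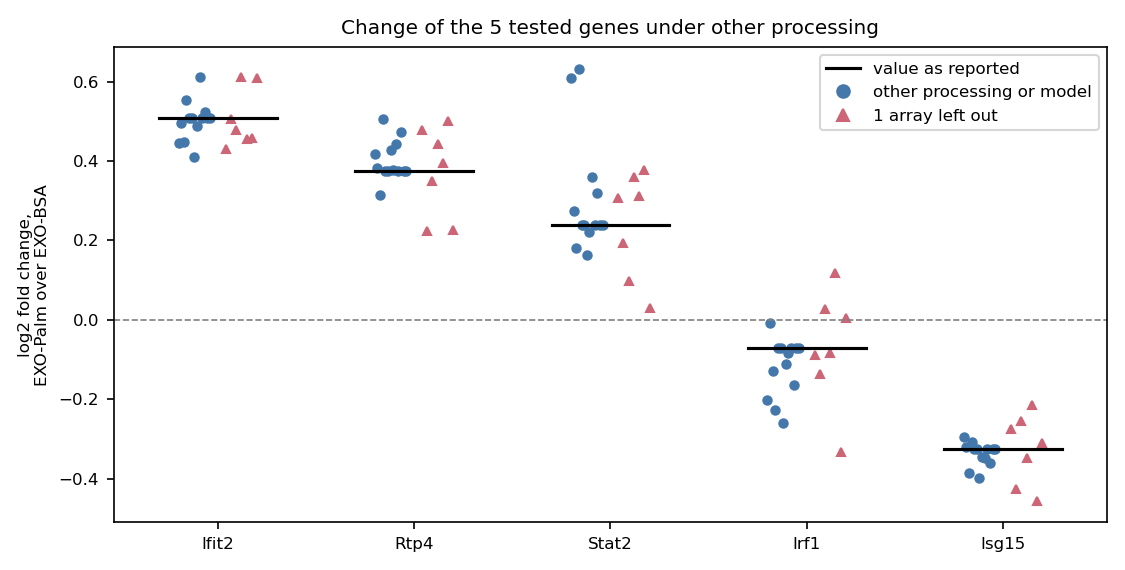
Log2 fold change of the 5 tested genes as reported (black line), under other processing or models (blue circles) and with 1 array left out (red triangles). Ifit2, Rtp4 and Stat2 stay above 0 and Isg15 below it throughout, while Irf1 crosses 0 when 1 of 3 arrays is left out. Settings that change only the probe filter or the test, and the trended and robust fit, repeat the reported value.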

How the data were processed

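For each of the 7 arrays the authors deposited the scanner output of Agilent Feature Extraction, in which the processed signal of a spot is a background-subtracted intensity with no scaling between arrays. The file headers name version 10.7.3.1 for 6 arrays and 11.5.1.1 for EXO-BSA replicate 3, while the submitters' notes name 9.1. The authors also deposited a table of processed log2 values, joined by row order (rank correlation with the array's median intensity at least 0.994) and used as an alternative. Gene names and mm9 positions are those of the array annotation.

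Here the signal was taken to log2 and each array's 75th percentile over 43020 non-control spots was subtracted, and 399 probes printed 10 times were averaged. Probes that the software called well above background on 75% or more of the arrays in 1 group or both were tested with limma 3.58.1 in R 4.3.3 (condition alone, Benjamini-Hochberg over 21589 probes, 2-sided). The exact permutation tests were 2-sided. Of several probes that carry a gene's name or its older name on the array, the brightest stands for it. Probes listed under a transcript identifier alone were not assigned to a gene. The fit was tested on simulated data. The number of arrays limits the precision.

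Named are all probes of the 9 genes and, of the pathway list, Ifnb1, Ifng, receptors, kinases and transcription factors, the largest rise and fall of each other role, any gene past the threshold, and the 6 genes whose values were most like the 5 tested. A gene that this rule also covers is not reported by name. Ifitm3, Gvin1, Cgas, Psmb10 and Rigi are outside the rule and were named after their values were seen. Genes and lists were chosen with earlier results of these data known. The alternatives covered background correction, scaling, the probe filter, slide, replicate number, the test and each array left out. Normexp used the median spot signal, since 1 file has no mean signal, a choice made after seeing the data.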

Additional observations from a re-analysis of the deposited data

How the results depend on the processing

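Of the 5 tested interferon response genes, 0 passed under 19 of 20 alternatives, and 1 (Ifit2) passed with the methods' t-test unadjusted. Of the pathway genes 0 passed under the same 19 and 5 with that test. Over all probes the count past the threshold was 115, and it was 0 with no probe filter, 181 with slide as a random block, 173 with the trended and robust fit, 180 with array weights, 0 with the methods' t-test after Benjamini-Hochberg and 2077 without it. With arrays left out it ran from 0, without EXO-BSA replicate 1, to 202, without EXO-Palm replicate 2, and was 7 without EXO-Palm replicate 1, 21 without EXO-BSA replicate 3, 27 without EXO-Palm replicate 3, 44 without EXO-BSA replicate 2 and 68 without EXO-BSA replicate 4. The cause was not tested. A limma unadjusted p under 0.05 was reached by 2169 of 21589 tested probes (10.0%). With no probe filter it was reached by 1900 of 39429, a lower share, so that share depends on the filter.

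The number of the 5 genes whose groups did not overlap was 0 as reported, 1 with normexp, 1 with the authors' processed values and 0 to 3 with an array left out (3 without EXO-Palm replicate 2). Their median log2 fold change was 0.51 with the authors' values and 0.030 to 0.38 with an array left out, lowest without EXO-Palm replicate 3. The median of the pathway genes was -0.069 with the median of each array, a scaling that put the median of all probes at -0.08, and -0.050 to 0.067 with an array left out. The sign of Irf1 turned without EXO-BSA replicate 3 (0.03), EXO-Palm replicate 1 (0.12) or EXO-Palm replicate 3 (0.01), and its leave-out values ran from -0.33 to 0.12. That of Ifi35 turned with slide as a fixed block (0.33) and without EXO-Palm replicate 2 (0.40), and that of Ikbke did too (0.19 and 0.011). With slide as a random block Ifi35 stayed at -1.57 and Ikbke at -0.45. With arrays left out Ifi35 ran from -3.29 to 0.40 and Ikbke from -0.89 to 0.011.

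Arrays that share a replicate number did not deviate together (correlations of 0.12, -0.15 and -0.15 for numbers 1 to 3), and 1 of 6 arrays correlated best with its own number, so the numbers were not taken to pair samples. With the replicate block, over 6 arrays, 0 probes passed and 1 of the 5 genes did not overlap. Signal near background leaves Ifit1, Ifit3, Irf7 and Usp18 without a comparison. The p-values measure the spread between these 7 arrays alone.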
